A study of Mus musculus with 74 samples.

Results

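Ribosomal protein genes were followed in mouse liver after loss of *Gps2*, which encodes a subunit of the NCOR and SMRT corepressor complex. The members are the rows of the RNA-seq table, and the rows of the ChIP-seq peak tables by their nearest gene, whose symbol begins with Rpl or Rps for the cytosolic ribosome or with Mrpl or Mrps for the mitochondrial ribosome. The 10 *Rps6k* rows, which name kinases, and 5 rows with pseudogene symbols were left out. This gave 162 members of 14583 RNA-seq rows, 84 cytosolic and 78 mitochondrial. The symbol rule also takes in *Rps19bp1*, whose product is not a ribosomal protein, and it misses genes such as *Rpsa* and *Fau*, which encode subunit proteins under other names.

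All livers came from C57BL/6 mice on chow diet aged 8 to 12 weeks per the labels. The headers of the H3K4me3 and H3K27ac counts of the *Gps2* line name the mice as fed. Those of the other libraries name no feeding state. RNA-seq was made from 4 WT and 4 *Gps2* LKO livers. The WT mice were *Gps2* flox/flox littermates without Cre, so the controls carried the floxed alleles too, and the LKO mice had the same alleles with Cre driven by the Alb promoter, which acts in hepatocytes and leaves *Gps2* in the other liver cells. The ChIP-seq libraries came from the same line and from liver-specific *Ncor* LKO, liver-specific *Smrt* LKO and whole-body *Pparα* KO mice, each against its own WT group, with 1 to 3 libraries in a group, each of which pooled several immunoprecipitations.

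The cytosolic ribosome joins a small subunit, which reads the mRNA, and a large subunit, which forms the peptide bond, and most subunit proteins are needed in the same amount. The mitochondrial ribosome makes the few respiratory chain proteins encoded by mitochondrial DNA, but its own proteins are encoded in the nucleus and imported. Cytosolic ribosomal protein mRNAs are among the most abundant of a cell, are short, begin with a run of pyrimidines through which mTOR signalling controls their translation, and have left many processed pseudogenes in the genome. Liver cells hold many ribosomes of both kinds, since hepatocytes secrete most plasma proteins and are rich in mitochondria.

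Promoters were read for 132 of the 162 members from the RefSeq table of GRCm38.p6, each 250 bases before and 50 after an annotated start, as 75 promoters of 63 cytosolic genes and 75 of 69 mitochondrial genes. Members without a promoter in that table include *Rpl3*, *Rpl7*, *Rpl8*, *Rpl17*, *Rpl21*, *Rpl23a*, *Rpl29*, *Rpl30*, *Rpl32*, *Rpl36*, *Rplp1*, *Rps4l*, *Rps14*, *Rps20*, *Rps27a*, *Rps29*, *Mrpl4*, *Mrpl13*, *Mrpl15*, *Mrpl19*, *Mrpl38*, *Mrpl54*, *Mrps28*, *Mrps34* and *Mrps35*. Of the members the results below turn on, the following 6 are shown to set the sequence types of the classes beside each other: an abundant and the most changed cytosolic member, a further one with a large change and a strong Pol II peak, and 3 mitochondrial members. Capitals mark an ETS site (CCGGAAG), a YY1 site (AAGATGGC) or an NRF1 site (GCGCATGC) on either strand, and the longest run of at least 8 C or T within 20 bases before to 30 after the start. Sites of the same motif on opposite strands can overlap, as the pair of NRF1 matches in *Mrpl9* does. The promoters lie at chr9:64173137-64173436 on the plus strand for *Rpl4*, chr9:44407464-44407763 on the plus strand for *Rps25*, chr7:45128696-45128995 on the minus strand for *Rpl13a*, chr7:105811038-105811337 on the minus strand for *Mrpl17*, chr14:54426659-54426958 on the plus strand for *Mrpl52* and chr3:94443086-94443385 on the plus strand for *Mrpl9*, and each is printed 5′ to 3′ along its gene.
Rpl4: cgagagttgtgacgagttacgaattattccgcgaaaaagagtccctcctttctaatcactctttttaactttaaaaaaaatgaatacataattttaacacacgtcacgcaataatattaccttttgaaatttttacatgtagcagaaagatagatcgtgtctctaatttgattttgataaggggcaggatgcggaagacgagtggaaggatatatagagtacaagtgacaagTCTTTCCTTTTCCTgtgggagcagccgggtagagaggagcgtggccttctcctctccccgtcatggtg
Rps25: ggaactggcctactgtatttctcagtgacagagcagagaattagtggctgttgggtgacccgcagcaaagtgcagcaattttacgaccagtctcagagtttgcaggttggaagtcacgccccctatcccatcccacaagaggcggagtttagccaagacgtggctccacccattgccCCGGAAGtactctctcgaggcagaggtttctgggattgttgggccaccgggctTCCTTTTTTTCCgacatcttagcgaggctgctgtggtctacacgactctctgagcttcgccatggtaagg
Rpl13a: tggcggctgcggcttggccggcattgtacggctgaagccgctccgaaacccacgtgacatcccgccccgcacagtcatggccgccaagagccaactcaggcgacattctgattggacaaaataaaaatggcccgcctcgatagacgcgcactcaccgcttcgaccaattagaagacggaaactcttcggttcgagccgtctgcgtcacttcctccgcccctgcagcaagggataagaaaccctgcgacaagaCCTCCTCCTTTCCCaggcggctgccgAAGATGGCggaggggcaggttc
Mrpl17: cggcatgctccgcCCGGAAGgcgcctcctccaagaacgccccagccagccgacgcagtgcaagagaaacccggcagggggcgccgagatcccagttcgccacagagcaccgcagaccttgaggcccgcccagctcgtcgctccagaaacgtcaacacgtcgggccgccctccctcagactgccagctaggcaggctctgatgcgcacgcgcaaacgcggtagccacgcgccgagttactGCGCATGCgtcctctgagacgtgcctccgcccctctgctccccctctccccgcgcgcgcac
Mrpl52: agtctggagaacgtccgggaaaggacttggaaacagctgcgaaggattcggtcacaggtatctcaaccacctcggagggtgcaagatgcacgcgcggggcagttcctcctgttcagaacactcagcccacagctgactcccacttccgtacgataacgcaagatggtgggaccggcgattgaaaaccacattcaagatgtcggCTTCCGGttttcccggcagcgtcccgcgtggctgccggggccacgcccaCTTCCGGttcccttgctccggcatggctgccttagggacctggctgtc
Mrpl9: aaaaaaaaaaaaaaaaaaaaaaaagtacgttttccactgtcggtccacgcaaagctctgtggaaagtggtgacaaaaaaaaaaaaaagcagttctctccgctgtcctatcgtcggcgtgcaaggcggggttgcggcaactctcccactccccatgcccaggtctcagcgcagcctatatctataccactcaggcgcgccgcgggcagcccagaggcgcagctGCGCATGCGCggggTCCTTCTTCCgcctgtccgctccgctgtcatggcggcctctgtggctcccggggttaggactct

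The pyrimidine run was more frequent in the cytosolic promoters. It stood in 46.7% of the cytosolic promoters, in 21.3% of the mitochondrial ones and in 19% of all 32851 promoters of the table. A counted run need not lie in the annotated mRNA. The marked runs of *Rpl4* and *Rps25* begin 18 and 20 bases before the annotated start and end before it, while that of *Rpl13a* lies after it. The ETS site was held by 32.0% of cytosolic and 34.7% of mitochondrial promoters, against 8.86% of all promoters. The YY1 site stood in 10.7% and 16.0% against 2.75%. The NRF1 site, which is bound by a regulator of nuclear genes for mitochondrial proteins, stood in 4.0% of cytosolic, 10.7% of mitochondrial and 2.71% of all promoters. The GC box (GGGCGG) stood in 60% and 52.0% against 35.7%, the CCAAT box (CCAAT) in 30.7% and 40.0% against 37.4%, the E box (CACGTG) in 10.7% and 9.33% against 7.15% and the TATA box (TATAAA) in 10.7% and 6.67% against 13.6%. The nuclear receptor hexamer (AGGTCA) was held by 13.3% of cytosolic and 14.7% of mitochondrial promoters, against 16.3% of all, and the DR1 element, the spaced pair of hexamers that PPARα binds, by 0 of the members and by 0.0396% of all promoters. All motifs were searched on both strands, a match is a description of the letters, and the hexamer lies within the DR1 element.

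The RNA-seq libraries held 14.75 to 16.18 M counted reads in WT and 13.19 to 20.09 M in LKO livers. *Gps2* itself, the check of the labels, stood at 16.4, 15.8, 16.7 and 15.1 CPM (counts per M reads after TMM scaling, where M stands for mega) in the WT libraries and at 12.7, 9.87, 9.17 and 12.9 CPM in the LKO libraries. The genotypes did not overlap, and the log2 fold change was -0.53 ± 0.11 (SE, adjusted p = 0.0021). LKO library 2 stood apart from the other LKO libraries at the members. It was the lowest LKO library for 56 of the 70 cytosolic and 64 of the 77 mitochondrial members tested, so the counts of both classes and of the lists around the ribosome are given with and without it.

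Cytosolic ribosomal protein genes were higher in *Gps2* LKO than in WT livers. Of the 70 members with enough reads to be tested, 55 rose and 0 fell at an adjusted p below 0.05, while of all 12220 genes tested 23.4% rose and 21.4% fell (edgeR quasi-likelihood test, Benjamini-Hochberg adjustment over all genes). The median log2 fold change was 0.56 over the cytosolic members and 0.03 over all genes, and all 70 estimates were above 0, from 0.11 to 1.08. In 47 of the 70, or 67.1%, every LKO library lay above every WT library, against 20% of all genes tested. The small subunit had 24 of 27 members called higher with a median of 0.58, and the large subunit 31 of 43 with a median of 0.54. Without LKO library 2, 59 of 72 members rose and 0 fell, with a median of 0.65 (27.8% and 28.8% of all genes). Scaling to total counts alone, which moved the median of all genes from 0.03 to -0.15, left 46 of 70 cytosolic members higher and 0 lower with a median of 0.37, and 63 of the 70 estimates above 0, where 12.8% of all genes rose and 37.9% fell. The livers are bulk tissue, in which fewer cells of a type and less RNA per cell cannot be told apart.

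Of the 5 cytosolic members of highest level, by CPM per kilobase of Length (RPKM), the 4 described here rose by 0.42 to 0.87. Reads of members with near copies elsewhere in the genome can be lost in counting, so this order is one of counted reads. *Rplp1*, a protein of the acidic stalk that recruits translation factors, had the highest level, 427 RPKM over all libraries. It stood at 149, 137, 129 and 151 CPM in WT and at 281, 191, 279 and 282 CPM in LKO livers, so the groups did not overlap, and its log2 fold change was 0.87 ± 0.11 (adjusted p = 3.96e-05). *Rpl4*, which lines the peptide exit tunnel, had 358 RPKM and stood at 443, 428, 432 and 438 CPM in WT and at 630, 505, 574 and 621 CPM in LKO livers. Its change of 0.42 ± 0.07 (adjusted p = 0.000327) was among the 5 smallest of the called members, although the LKO libraries again all lay above WT. *Rpl8*, close to the peptidyl transferase centre, stood at 178, 179, 175 and 172 CPM against 279, 206, 288 and 275 CPM, a change of 0.58 ± 0.09 (adjusted p = 0.000221). Its groups were separated, with LKO library 2 the nearest to WT. *Rpl41*, a very short peptide at the contact of the subunits, stood at 82.7, 89.7, 83.4 and 88.7 CPM against 143, 91.5, 137 and 127 CPM, a change of 0.53 ± 0.11 (adjusted p = 0.00206). In *Rpl41*, LKO library 2 exceeded the highest WT library by a small margin only.

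The size of the change did not follow the level over the class, with a Spearman's rho of -0.01 between log2 fold change and RPKM over the 70 members. The members with the largest estimates follow. *Rps25*, a protein of the small subunit head that internal initiation sites need, rose from 1.80, 2.08, 1.98 and 2.10 CPM in WT to 4.63, 2.80, 4.71 and 5.11 CPM in LKO livers, a log2 fold change of 1.08 ± 0.20 (adjusted p = 0.000721). *Rpl36*, a large subunit protein, followed with 1.00 ± 0.32 (adjusted p = 0.0209) at 0.682, 0.416, 0.932 and 0.637 CPM against 0.896, 1.07, 1.43 and 2.14 CPM. Its groups overlapped and its reads were few. *Rps19*, mutated in Diamond-Blackfan anaemia, rose from 18.2, 18.2, 17.3 and 14.97 CPM to 33.2, 25.4, 40.0 and 32.3 CPM, a change of 0.93 ± 0.12 (adjusted p = 6.3e-05). In *Rps25* and *Rps19* the groups were separated, and the nearest LKO library was library 2. *Rps7* of the small subunit rose by 0.87 ± 0.27 (adjusted p = 0.0205) at under 1.4 CPM in every library. Of the stretches of 50 bases in *Rps25*, *Rpl36* and *Rps7*, 58.99, 93.52 and 59.76% recur elsewhere in the genome. *Rpl13a*, at 124, 121, 124 and 124 CPM against 231, 170, 237 and 236 CPM, changed by 0.83 ± 0.09 (adjusted p = 1.17e-05) and is named for its promoter, shown above.

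Among the smallest changes of the called members were 0.33 ± 0.11 for *Rpl6*, the above 0.42 for *Rpl4*, 0.43 ± 0.09 for *Rps2*, which lies at the mRNA entry of the small subunit, and 0.43 ± 0.14 for *Rps18*, with adjusted p of 0.0308, 0.000327, 0.00283 and 0.0208. *Rps2* stood at 42.3, 40.2, 37.3 and 41.5 CPM against 61.9, 44.3, 54.6 and 56.9 CPM, with separated groups. The 15 tested members without a call had estimates from 0.11 to 0.53: *Rplp0*, *Rpl5*, *Rpl31*, *Rpl12*, *Rps19bp1*, *Rpl37rt*, *Rpl7l1*, *Rpl17*, *Rpl15*, *Rps27l*, *Rpl35*, *Rpl27a*, *Rpl10a*, *Rpl27* and *Rps12*. The member just inside the threshold with the largest p was *Rps6* at 0.0467, and the one just outside was *Rpl27a* at 0.0532.

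The stalk proteins did not share a call. *Rplp0*, the base of the stalk, stood at 206, 190, 183 and 192 CPM in WT and at 230, 188, 184 and 230 CPM in LKO livers, an estimate of 0.11 ± 0.08 with overlapping groups (adjusted p = 0.29). Its partners in the stalk were *Rplp1*, given above, and *Rplp2*, which rose by 0.71 ± 0.13 (adjusted p = 0.000805) from 10.1, 11.8, 10.7 and 8.54 CPM to 17.9, 13.1, 19.4 and 17.5 CPM. The difference between *Rplp0* and its partners was not tested.

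Paralogs, which encode close copies of a ribosomal protein, were compared with the member they resemble. *Rpl22* rose by 0.60 ± 0.10 and *Rpl22l1* by 0.54 ± 0.19 (adjusted p = 0.000287 and 0.0331). *Rpl7* rose by 0.52 ± 0.09 (adjusted p = 0.000626), and *Rpl7l1*, a gene of pre-ribosomes, gave 0.17 ± 0.07 with every LKO library above WT (adjusted p = 0.0681). *Rps27* rose by 0.85 ± 0.28 (adjusted p = 0.026) at under 2 CPM in every library, and *Rps27l*, a target of p53, gave 0.28 ± 0.13 at 72.1, 73.5, 71.6 and 88.0 CPM against 115, 78.6, 71.9 and 105 CPM (adjusted p = 0.0986). *Rpl36al* rose by 0.49 ± 0.11 (adjusted p = 0.00364) and *Rpl3* by 0.53 ± 0.12 (adjusted p = 0.00316), while *Rpl36a* and *Rpl3l* had too few reads to be tested. *Rpl10* and *Rpl39* rose by 0.61 ± 0.21 and 0.56 ± 0.14 (adjusted p = 0.0288 and 0.00694). Reads of near-identical copies can be split between them or lost in counting, so single values of such members are uncertain.

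The 14 cytosolic members that were not tested, among them *Rpl3l*, *Rpl9*, *Rpl23a*, *Rpl24*, *Rpl28*, *Rpl32l*, *Rpl36a*, *Rpl38*, *Rps13*, *Rps16*, *Rps23*, *Rps28* and *Rps29*, and *Mrpl23* of the mitochondrial class, had 0 to 14 reads in each library. Most of these encode core subunit proteins. Without the filter on low counts, 56 of all 84 cytosolic members rose and 0 fell, beside 20.3% and 18.4% of all genes, and 27 of all 78 mitochondrial members rose and 0 fell. Stretches of 50 bases of the members' transcripts were searched letter for letter in mm9 outside the gene itself. A median of 50.7% of these stretches recurred elsewhere for 81 cytosolic members, and 0.0% for 78 mitochondrial members. The 14 tested cytosolic members with under 20% of recurring stretches had 11 called higher and a median change of 0.58, and the 54 with more had 43 called higher and a median of 0.56. Spearman's rho over the cytosolic members was -0.38 (n = 81) between the recurring share and RPKM and 0.03 (n = 68) between that share and the log2 fold change, where the points share libraries and depth.

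Change in these libraries fell with transcript length. Length, the bases of exon per gene in the deposited table, and the log2 fold change had a Spearman's rho of -0.40 over all 12220 genes, -0.23 over the 70 cytosolic and -0.34 over the 77 mitochondrial members, values across genes that share the 8 libraries. The tested cytosolic members had a median Length of 786.5 bases, against 2951.5 bases over all genes tested. The members were therefore set beside the other genes of like Length, from the 5th to the 95th percentile of each class. For the cytosolic class these were 4093 genes of 437 to 2282 bases, of which 36.6% rose and 8.06% fell, with a median of 0.20. The cytosolic median was 0.36 above theirs, and 0.35 to 0.41 when each library was left out in turn. These genes had a median Length of 1583 bases and so were longer than the members, and narrower length classes follow below. Of 3602 such genes that were also alike in level, 35.5% rose and 7.75% fell, with a median of 0.19.

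The same held within length classes. Below 600 bases, 18 of 21 cytosolic members and 49.0% of 194 other genes rose, with medians of 0.56 and 0.39. From 600 to below 1000 bases, 24 of 30 members and 46.5% of 557 other genes rose, with medians of 0.62 and 0.29. From 1000 to below 2000 bases, 10 of 14 members and 36.7% of 2579 other genes rose, with medians of 0.47 and 0.20, and from 2000 bases on 3 of 5 members and 16.8% of 8743 others, with medians of 0.56 and -0.06. In every length class the cytosolic share exceeded that of the other genes, with 5 members only in the longest.

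**Figure D1:**
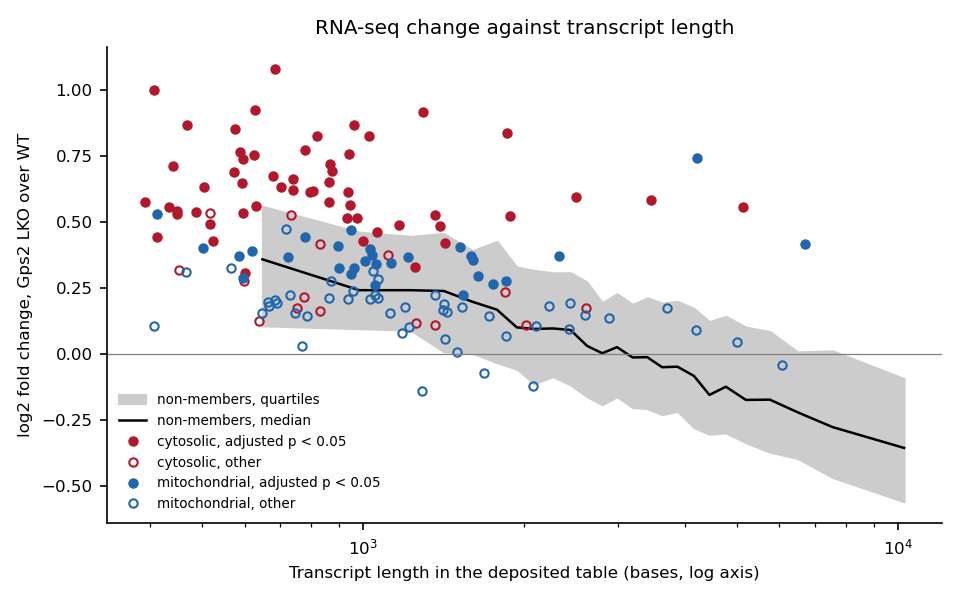
Log2 fold change of Gps2 LKO over WT (vertical axis) against transcript length in bases (horizontal log axis) for the 70 cytosolic (red) and 77 mitochondrial (blue) members tested, filled where the adjusted p was below 0.05. The line and band are the median and quartiles of the other genes in bins of length and begin at 648 bases, so shorter members have no band. From 600 to below 1000 bases the medians are 0.62 (cytosolic), 0.23 (mitochondrial) and 0.29 (other genes). From 1000 to below 2000 bases they are 0.47, 0.22 and 0.20, and from 2000 bases on 0.56, 0.14 and -0.06. The blue points of Mrpl15 (4201 bases, 0.74) and Mrpl17 (6712 bases, 0.42) lie above the band.

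A curve of each library's deviation against Length, fitted over all genes and removed as an offset, lowered both classes. With the trend removed, 34 of 70 cytosolic members rose and 0 fell, with a median of 0.26 and 59 of 70 estimates above 0, beside 21.7% and 22.1% of all genes. The 34 included *Rps25* at 0.73 ± 0.16 (adjusted p = 0.00125), *Rps15a* at 0.71 ± 0.14 (adjusted p = 0.000508), *Rpl21* at 0.70 ± 0.24 (adjusted p = 0.0266) and *Rps20* at 0.61 ± 0.11 (adjusted p = 0.00022). *Rplp1*, *Rpl4* and *Rpl8* were called at 0.43, 0.20 and 0.26, and *Rpl41* at 0.09 was not (adjusted p = 0.261). Without LKO library 2 and with the trend removed, 36 of 72 cytosolic members rose and 1, *Rplp0*, fell, with a median of 0.25. The share of all genes in that fit is not given here, so its counts describe only how far calls depend on the processing.

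Mitochondrial ribosomal protein genes showed a smaller change. Of 77 members tested, 29 rose and 0 fell, beside the 23.4% and 21.4% of all genes, with a median log2 fold change of 0.22 and 73 of 77 estimates above 0. In 13 members, or 16.9%, every LKO library lay above every WT library, which is below the 20% of all genes tested. In *Mrps2*, or 1.3% of the members, every LKO library lay below, against 19.1% of all genes tested. The 8363 other genes of like Length, from 553 to 4191 bases, had a median of 0.10, with 27.7% called higher and 13.9% lower, and the mitochondrial median was 0.13 above theirs. Their median Length was 2344 bases, against 1067 for the members tested, so the range does not match Length closely. Below 600 bases, 4 of 7 members and 49.0% of other genes rose, with medians of 0.32 and 0.39. From 600 to below 1000 bases these were 8 of 22 and 46.5%, with 0.23 and 0.29. From 1000 to below 2000 bases they were 14 of 34 and 36.7%, with 0.22 and 0.20. From 2000 bases on they were 3 of 14 and 16.8%, with 0.14 and -0.06. The large subunit had 18 of 48 members called higher and the small subunit 11 of 29, with medians of 0.22 each.

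The count of mitochondrial members rested on single libraries and on the scaling. Without LKO library 2, 55 members rose and 1, *Mrps2*, fell, with a median of 0.28. Beside it, 27.8% and 28.8% of all genes rose and fell. Without LKO library 1 or WT library 3, 16 rose, beside 19.6% and 18.6% of all genes, and without LKO library 4 or WT library 2, 18 rose, beside 19.6% and 19.2%. With total counts, where 12.8% of all genes rose and 37.9% fell, 5 rose, *Mrpl15*, *Mrpl17*, *Mrpl12*, *Mrpl52* and *Mrpl43*, and 3 fell, *Mrpl4*, *Mrpl10* and *Mrps2*, with a median of 0.04. With the length trend removed, 6 rose and 9 fell with a median of 0.00, where 39 of 77 estimates were above 0 and the other genes of like Length had 21.5% called higher and 21.0% lower. Without LKO library 2 and with the trend removed, 12 rose and 13 fell. The share of all genes in that fit is again not given, and its counts are no result about the members.

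The mitochondrial members of highest level were *Mrpl52*, *Mrpl12*, *Mrpl30*, *Mrpl14* and *Mrpl24*, at 99.9, 96.6, 68.8, 64.4 and 56.1 RPKM. *Mrpl52*, a protein found in the mitochondrial ribosome alone, stood at 34.7, 33.0, 31.9 and 34.5 CPM in WT and at 56.9, 34.4, 49.5 and 54.1 CPM in LKO livers, a change of 0.53 ± 0.12 (adjusted p = 0.00407), with LKO library 2 inside the WT range. *Mrpl12*, the stalk protein that also binds the mitochondrial RNA polymerase, stood at 79.1, 78.3, 77.0 and 72.7 CPM against 117, 84.1, 113 and 112 CPM, a change of 0.47 ± 0.09 (adjusted p = 0.00132), with separated groups. *Mrpl14* and *Mrpl24* rose by 0.29 ± 0.10 and 0.30 ± 0.10 (adjusted p = 0.0367 and 0.0246), and *Mrpl30* gave 0.19 ± 0.12 (adjusted p = 0.215). With the length trend removed, *Mrpl14* and *Mrpl30* had estimates of the opposite sign, -0.10 and -0.17, with no call. *Mrpl14*, *Mrpl24* and *Mrpl30* overlapped between the groups.

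*Mrpl15*, a large subunit protein, had the largest change of the class. It stood at 48.1, 50.05, 47.2 and 47.6 CPM in WT and at 90.7, 62.4, 83.8 and 86.7 CPM in LKO livers, with a log2 fold change of 0.74 ± 0.10 (adjusted p = 7.09e-05). With a Length of 4201 bases it lies outside the like-Length range, and it kept 0.83 ± 0.11 with the trend removed (adjusted p = 8.49e-06). *Mrpl17*, also of the large subunit and 6712 bases long, stood at 43.6, 46.4, 41.5 and 46.1 CPM against 63.8, 48.5, 63.1 and 62.1 CPM, a change of 0.42 ± 0.09 (adjusted p = 0.00239), and of 0.66 ± 0.12 with the trend removed (adjusted p = 0.000302). Both were separated between the groups. *Mrps6* of the small subunit rose by 0.44 ± 0.14 (adjusted p = 0.0219) at 11.8, 10.7, 9.37 and 11.3 CPM against 17.2, 11.9, 12.1 and 18.2 CPM. The smallest called changes were 0.22 for *Mrps31*, 0.26 for *Mrpl48*, 0.27 for *Mrps7*, 0.28 for *Mrpl39* and 0.29 for *Mrpl14*, each with an adjusted p from 0.0138 to 0.0478.

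With the trend removed, the 6 mitochondrial members called higher were *Mrpl15*, *Mrpl17*, *Mrpl57* at 0.29, *Mrpl51* at 0.20, *Mrpl9* at 0.17 and *Mrpl12* at 0.17, all of the large subunit. The 9 called lower were *Mrpl4* at -0.37, *Mrps21* at -0.33, *Mrpl32* at -0.30, *Mrpl10* at -0.25, *Mrps2* at -0.23, *Mrpl34* at -0.21, *Mrpl37* at -0.20, *Mrpl13* at -0.19 and *Mrpl20* at -0.17. Of these 9, *Mrpl4*, *Mrps2* and *Mrpl10* had estimates below 0 without the curve too, at -0.14, -0.12 and -0.07, with no call, and the others had estimates above 0. *Mrpl4* stood at 21.3, 19.4, 19.04 and 19.2 CPM in WT and at 18.7, 16.7, 19.1 and 17.1 CPM in LKO livers, so its groups overlapped.

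**Figure D2:**
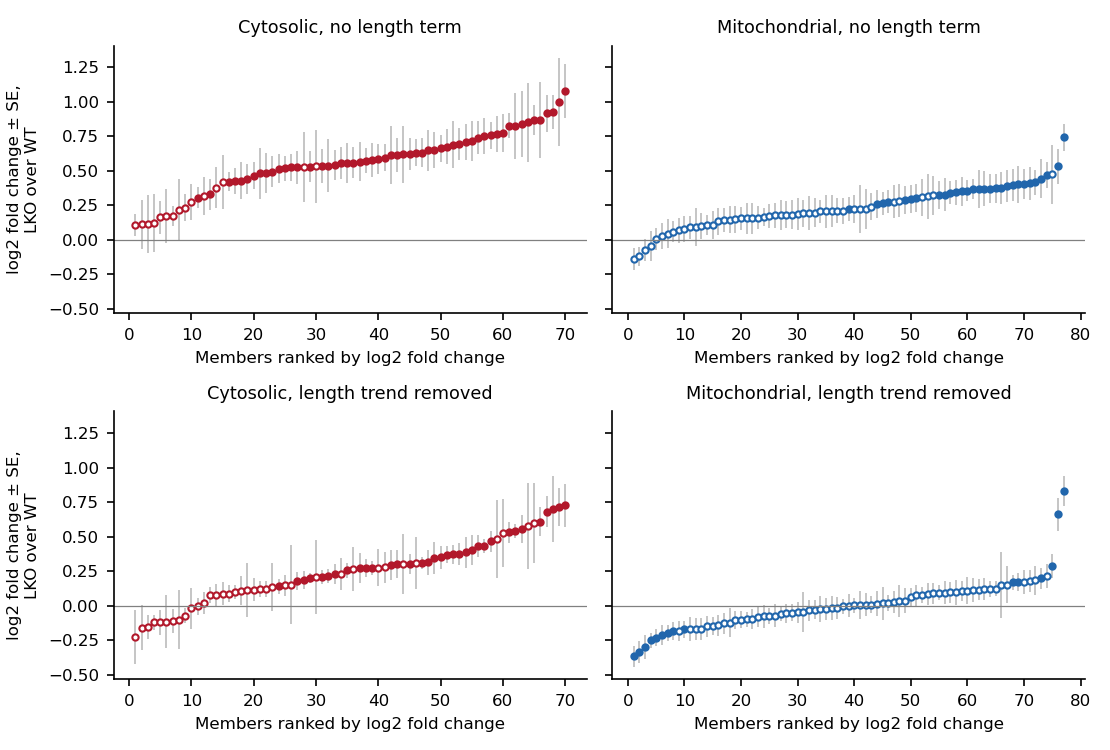
Log2 fold changes with SE of the members ranked within each class, without (top) and with (bottom) removal of the length trend, filled where the adjusted p was below 0.05. The cytosolic members stay mostly above 0 in both panels (70 and 59 of 70), and the mitochondrial members move from 73 to 39 of 77 above 0.

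The libraries show the spread behind these counts. The median over the cytosolic members of the log2 ratio to the WT mean was 0.00, -0.02, -0.05 and 0.04 in the WT libraries and 0.68, 0.21, 0.53 and 0.64 in the LKO libraries. The WT libraries gave 0.00, -0.01, -0.04 and 0.05 for the mitochondrial members, and the LKO libraries gave 0.36, -0.03, 0.22 and 0.34. LKO library 2 thus lay above the WT libraries for the cytosolic class and among them for the mitochondrial class. Cytosolic members took 0.318, 0.311, 0.303 and 0.327% of all reads in WT and 0.439, 0.336, 0.410 and 0.428% in LKO livers, and mitochondrial members 0.213, 0.212, 0.205 and 0.217% against 0.239, 0.194, 0.222 and 0.234%. Reads of stretches that recur elsewhere can be lost in counting. These shares therefore compare libraries and do not give the level of a class.

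**Figure D3:**
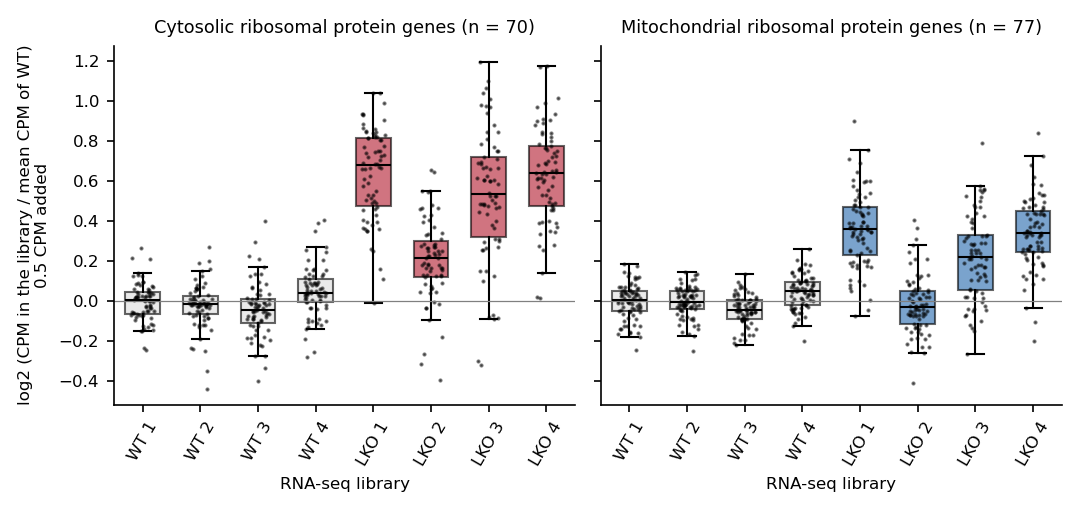
Log2 ratio of each member's CPM to its WT mean (0.5 CPM added to each) in the 8 RNA-seq libraries, with 1 point a member, boxes at the quartiles and whiskers at 1.5 times the box. The LKO medians are 0.68, 0.21, 0.53 and 0.64 for the cytosolic and 0.36, -0.03, 0.22 and 0.34 for the mitochondrial members, lowest in library 2 in each class.

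Subunit genes outside the symbol rule were read beside the classes. *Rpsa*, a small subunit protein also known as the laminin receptor, rose by 0.61 ± 0.14 (adjusted p = 0.00453). *Fau*, ubiquitin-like protein fused to a small subunit protein, gave 0.68 ± 0.30 at under 2 CPM (adjusted p = 0.0741). *Rack1*, a scaffold on the small subunit, rose by 0.41 ± 0.07 (adjusted p = 0.000496) from 245 to 256 CPM in the WT libraries to 288 to 371 CPM in the LKO libraries. Of the 4 such cytosolic genes tested 3 rose and 0 fell, beside 23.4% and 21.4% of all genes. With total counts (12.8% and 37.9% of all genes) or the length trend removed (21.7% and 22.1%), 2 rose and 0 fell. Of 5 mitochondrial subunit genes under other names, 1 rose and 0 fell. Without LKO library 2, 4 rose and 0 fell, beside 27.8% and 28.8% of all genes. With total counts 1 rose and 1 fell, and with the trend removed 2 and 0. The 1 called without these alternatives was *Gadd45gip1*, which rose by 0.52 ± 0.10 (adjusted p = 0.00107), while *Dap3* gave 0.18 ± 0.10 (adjusted p = 0.132).

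Genes around the ribosome moved in both directions. The counts below stand beside 23.4% of all genes higher and 21.4% lower, 12.8% and 37.9% with total counts, 21.7% and 22.1% with the length trend removed, and 27.8% and 28.8% without LKO library 2. Of 37 translation factors tested, 16 rose and 2 fell, from *Tpt1* at 0.72 to *Eif4g1*, the initiation scaffold, at -0.28. With total counts 8 rose and 5 fell, with the trend removed 14 and 2, and without LKO library 2 23 and 3. Of 54 ribosome biogenesis genes, 11 rose and 7 fell, with *Npm1*, a nucleolar chaperone, at 0.60 and *Polr1a*, the large subunit of RNA polymerase I, at -0.48. With total counts 4 rose and 14 fell, with the trend removed 7 and 8, and without LKO library 2 17 and 7, so this list had no steady direction and shares near or below those of all genes with all libraries. Of 26 regulators of ribosome production, the mTOR pathway and MYC network among them, 2 rose and 13 fell, with *Eif4ebp1*, an inhibitor of initiation, at 0.39, *Mtor* at -0.42 and *Deptor*, an inhibitor of mTOR, at -0.83. With total counts 0 rose and 19 fell, with the trend removed 0 and 10, and without LKO library 2 2 and 18. Of 34 mitochondrial translation genes 3 rose and 4 fell, from *Tufm*, the elongation factor, at 0.40 to *Cars2*, a tRNA synthetase, at -0.31, with 0 and 16 by total counts, 2 and 3 with the trend removed and 5 and 7 without LKO library 2. Of 19 factors of mitochondrial gene expression 3 rose and 1 fell, from *Polg2* at 0.55 to *Gabpb2* at -0.56, with 2 and 7 by total counts, 6 and 2 with the trend removed and 5 and 4 without LKO library 2.

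Markers of liver cell types moved in the same libraries, with counts that again stand beside 23.4% of all genes higher and 21.4% lower. The 7 stellate cell markers all rose, with a summed level of 182 to 190 CPM in WT and 339 to 351 CPM in LKO livers, led by *Col1a1* at 1.09. Of 8 Kupffer cell markers tested 7 rose and 0 fell (sums of 139 to 144 and 184 to 214 CPM, *Cd68* at 0.75), of 5 cholangiocyte markers 3 and 0 (64.4 to 68.8 and 91.2 to 112 CPM), of 7 markers of sinusoidal endothelium 2 and 0 (163 to 168 and 178 to 192 CPM) and of 8 proliferation genes 6 and 0 (38.3 to 43.4 and 54.8 to 58.6 CPM). Of 10 hepatocyte markers 5 rose and 2 fell, among them *Ttr* at 0.86 and *Hnf4a* at -0.41. The sum of these, mostly Alb, went from 119000 to 123000 CPM in WT to 157000 to 185000 CPM in LKO livers, so the labelled tissue is borne out by its markers. Of 5 erythroid markers 4 rose and 1 fell (253 to 287 and 219 to 299 CPM), and of the lymphocyte markers *Ptprc* rose by 0.45 while *Cd3e*, *Cd79a*, *Ms4a1* and *Nkg7* stayed below 1 CPM in each group. Of the nuclear RNAs, *Neat1* rose by 0.36 and *Malat1* fell by 1.04 on the log2 scale, with 1 other not called. With total counts, where 12.8% of all genes rose and 37.9% fell, the stellate and cholangiocyte counts were unchanged at 7 and 3 higher, while Kupffer cell markers had 4 higher, endothelial markers 0, proliferation genes 4 higher and 1 lower, hepatocyte markers 2 and 2, erythroid markers 2 and 1, and *Ptprc* had no call. With the length trend removed, beside 21.7% and 22.1% of all genes, the stellate and cholangiocyte counts were again 7 and 3 higher. Kupffer cell markers then had 5 higher, endothelial markers 5, and proliferation genes 5 higher and 1 lower. Hepatocyte markers had 5 and 2, and erythroid markers 1 and 1. The part of these cell types and RNAs in the change of the members was not tested.

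GPS2 itself was mapped by ChIP-seq in 1 WT and 1 *Gps2* LKO library. A promoter peak, here the nearest peak within 1000 bp of the start, was present for 81.0% of the cytosolic members, for 82.1% of the mitochondrial members and for 67.9% of all genes tested in RNA-seq. The GPS2 tags at these peaks were few in WT, with medians of 9.68 and 9.36 tags per 10 M tags of depth in the classes and 10.3 over all promoter peaks. The 69 cytosolic peaks held 1089 tags in WT and 55 in LKO, a depth-scaled ratio of 0.0529 (95% interval 0.0396 to 0.0694, counting error only), and the 64 mitochondrial peaks 1114 and 29, a ratio of 0.0273 (0.0182 to 0.0394). Over all 9319 promoter peaks the ratio was 0.0406. All 69 and all 64 fell by a log2 ratio of at least 1, as did 99.5% of all promoter peaks, so the loss was not particular to the members. Each of the 9319 peaks held at least 5 tags in WT, and 0 had a log2 ratio above 0. If the peaks were picked for their WT tags, part of this fall follows from that choice. The ratios and intervals do not account for it.

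The peaks with the most GPS2 tags, in mm9, were those of *Rpl35a* (chr16:33056472-33056608), *Rps19bp1* (chr15:80094688-80094824) and *Rplp2* (chr7:148633469-148633605) among the cytosolic members, with 28, 28 and 25 tags in WT and 0, 0 and 2 in LKO. Among the mitochondrial members they were those of *Mrpl1* (chr5:96639050-96639186), *Mrpl4* (chr9:20807532-20807668) and *Mrpl15* (chr1:4775746-4775882), with 49, 40 and 37 tags in WT and 0 in LKO, where 0 tags has an exact 95% upper limit of 2.49 tags per 10 M. Most of these peaks are centred within 20 bases of the annotated start, and that of *Mrpl4* lies 419 bases from it. In RNA-seq, *Rpl35a* (0.54 ± 0.12, adjusted p = 0.00353), *Rplp2* and *Mrpl15* rose, while *Rps19bp1*, *Mrpl1* and *Mrpl4* had no call, with estimates of 0.16, 0.09 and -0.14 (adjusted p = 0.276, 0.398 and 0.177).

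Pol II, the polymerase that transcribes these genes, was also mapped in 1 WT and 1 *Gps2* LKO library. The 79 cytosolic promoter peaks held 12971 tags in WT and 14950 in LKO, a depth-scaled ratio of 1.13 (1.10 to 1.16), with a median log2 ratio of 0.19 and 75 of 79 above 0. The 68 mitochondrial peaks gave a ratio of 1.11 (1.08 to 1.15), a median of 0.15 and 55 of 68 above 0, and all 12094 promoter peaks a median of 0.07 with 7671 above 0. No member of either class passed a log2 ratio of 1 in size, as 1.89% of all promoter peaks did upwards and 1.58% downwards. *Rpl3*, *Rps12* and *Rpl13a* held the most tags of the cytosolic class, with 259 and 301, 256 and 284, and 226 and 264 tags in WT and LKO. *Mrpl48*, *Mrps6* and *Mrpl9* held the most of the mitochondrial class, with 224 and 239, 192 and 217, and 184 and 218 tags. The interval of the ratio spanned 1 for each of these 6. With 1 library a group, these values compare libraries and not genotypes.

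**Figure D4:**
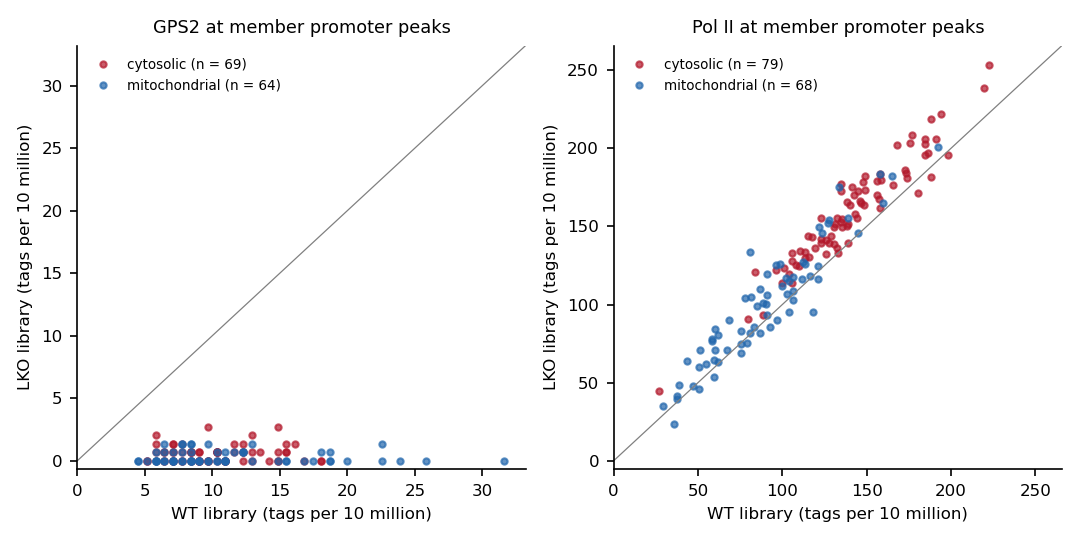
Tags per 10 M at member promoter peaks in the LKO library (vertical axis) against the WT library (horizontal axis) for GPS2 (left, 69 cytosolic and 64 mitochondrial) and Pol II (right, 79 and 68), with the line of equality. GPS2 tags lie near 0 in LKO at all members, and Pol II tags lie close to the line with 75 of 79 cytosolic and 55 of 68 mitochondrial points above it.

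At the member promoters with a peak, the histone marks differed little between *Gps2* LKO and WT. Promoter peaks were present for 43 (H3K27ac) and 42 (H3K4me3) of the 84 cytosolic members. For each mark they were present for 53 of the 78 mitochondrial members. Pol II had promoter peaks for 78 cytosolic and 68 mitochondrial members. The marks at the promoters of the remaining members were not tested. For H3K27ac, a mark of active promoters and enhancers (2 against 2 libraries), 0 of 43 cytosolic and 0 of 53 mitochondrial promoter peaks were called in either direction, as 0.55% and 0.161% of all promoter peaks were higher and lower, with medians of -0.02 and -0.03 (edgeR). An unadjusted p below 0.05 was reached by 1 in each class, beside 6.66% of all promoter peaks, and DESeq2 called 0. For H3K4me3, a mark of active promoters (2 against 2), 0 of 42 and 0 of 53 were called, beside 0.347% and 0.0815% of all promoter peaks, 1 in each class passed an unadjusted p of 0.05, beside 5.33% of all, and DESeq2 called 0. The medians were 0.08 and 0.04 against 0.04 over all promoters, and 40 of the 42 cytosolic and 42 of the 53 mitochondrial estimates were above 0, beside 6879 of 9810 over all promoter peaks. At the *Rpl4* promoter H3K4me3 stood at 751 and 745 tags per 10 M in WT and at 813 and 819 in LKO, a log2 fold change of 0.12 ± 0.06 (adjusted p = 0.664). At *Mrpl15*, H3K4me3 stood at 685 and 644 against 709 and 716, a change of 0.10 ± 0.065 (adjusted p = 0.809), and H3K27ac at 282 and 261 against 308 and 320, a change of 0.21 ± 0.09 (adjusted p = 0.322). These 2 genes were chosen after their values were seen.

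PPARα tags were compared at promoters in *Gps2* LKO and WT livers. The 3 WT libraries agree within sampling noise, with a chi-square per peak of 0.973 to 0.977 where the pairs of LKO libraries had 1.39 to 1.76, and were counted as 1 sample. That leaves 1 WT sample, which is assumed to vary as the 3 LKO libraries do. Then 2 of 67 cytosolic and 3 of 64 mitochondrial promoter peaks were called higher and 0 lower, beside 8.02% and 0.103% of all promoter peaks. With the libraries as deposited (3 against 3), 6 cytosolic peaks were higher and 1 lower, that of *Rpl4* at -1.52 ± 0.57 with overlapping groups (adjusted p = 0.0249), and 11 mitochondrial peaks were higher and 0 lower, beside 19.2% and 0.266%. The medians were then 0.35 and 0.38, and 0.40 over all promoters. *Mrpl45* stood at 26.6, 40.8 and 29.3 tags per 10 M in WT and at 79.3, 63.5 and 66.3 in LKO livers, a change of 1.07 ± 0.20, and *Mrpl34* at 27.8, 56.0 and 55.2 against 72.4, 58.7 and 67.4, a change of 0.48 ± 0.19, each with the libraries as deposited and separated groups (adjusted p = 8e-06 and 0.0348). Both are large subunit proteins, and both counts depend on the scaling, given in the closing section. The SE and adjusted p of *Rpl4*, *Mrpl45* and *Mrpl34* take the 3 WT libraries as separate samples and can be too small.

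The corepressor tags at members were set beside those at all promoters. GPS2 tags in *Ncor* LKO had medians of -0.82 and -1.06 at the 62 cytosolic and 55 mitochondrial promoter peaks and -1.01 over all promoters. By edgeR 0% of all promoter peaks and no member passed the adjusted p, 14 and 10 members (22.6% and 18.2%) passed an unadjusted p of 0.05, beside 24.9% of all promoter peaks, and DESeq2 called 3 and 2 lower, beside 8.27% of all promoter peaks. Without WT library 3 of that comparison, 30 in each class were lower by edgeR, beside 55.7% of all promoter peaks. In *Pparα* KO the GPS2 medians were -0.51 and -0.56 at 74 and 48 peaks and -0.63 over all promoters, with 0 members called by edgeR or DESeq2, 1 and 4 at an unadjusted p of 0.05 beside 7.66% of all, and 0.0291% of all promoter peaks called lower. NCOR tags had medians of -0.21 and -0.17 in *Gps2* LKO, against -0.12 over all promoters, and of -0.32 and -0.26 in *Pparα* KO, against -0.26. No member was called in either by edgeR or DESeq2, beside 0% of all promoter peaks in *Gps2* LKO and 0.0341% higher and 0.58% lower in *Pparα* KO, and an unadjusted p of 0.05 was passed by 0 and 0 in *Gps2* LKO and by 0 and 4 in *Pparα* KO, beside 1.06% and 7.66% of all promoter peaks. At WT medians of 7.36 and 8.08 tags per 10 M in the *Gps2* line, the absence of calls does not show that NCOR was the same at the members.

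H3K27ac had no call in the *Ncor* or *Smrt* line at the member promoters with a peak. In each line these covered 55 of the 84 cytosolic and 54 of the 78 mitochondrial members. In *Ncor* LKO the medians were -0.11 at 56 cytosolic and -0.13 at 54 mitochondrial peaks, against -0.07 over all promoters, with 0 members called by edgeR or DESeq2, 2 and 8 (3.57% and 14.8%) at an unadjusted p of 0.05 beside 8.41% of all, and 0.487% and 0.54% of all promoter peaks higher and lower. The estimates were below 0 at 53 of 56 and 51 of 54 member peaks and at 6593 of 9451 promoter peaks in all. In *Smrt* LKO the medians were -0.02 and -0.06 against -0.04, with 0 called by edgeR or DESeq2 and 0 at an unadjusted p of 0.05 in each class, beside 0% and 4.34% of all promoter peaks. PPARα tags in *Ncor* LKO had medians of 0.11 and 0.12 against 0.06, with 0 members called by edgeR or DESeq2, 0 at an unadjusted p of 0.05, and 0.00873% of all promoter peaks called in each direction. In *Pparα* KO, the PPARα tags of 3 of 26 cytosolic promoter peaks, *Rpl13a*, *Rpl30* and *Rps19*, and of 1 of 40 mitochondrial ones, *Mrpl4*, were lower, beside 13.6% of all promoter peaks, on a median of 1.5 and 1.84 tags per 10 M in WT, and these 4 were named after their values were seen.

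**Figure D5:**
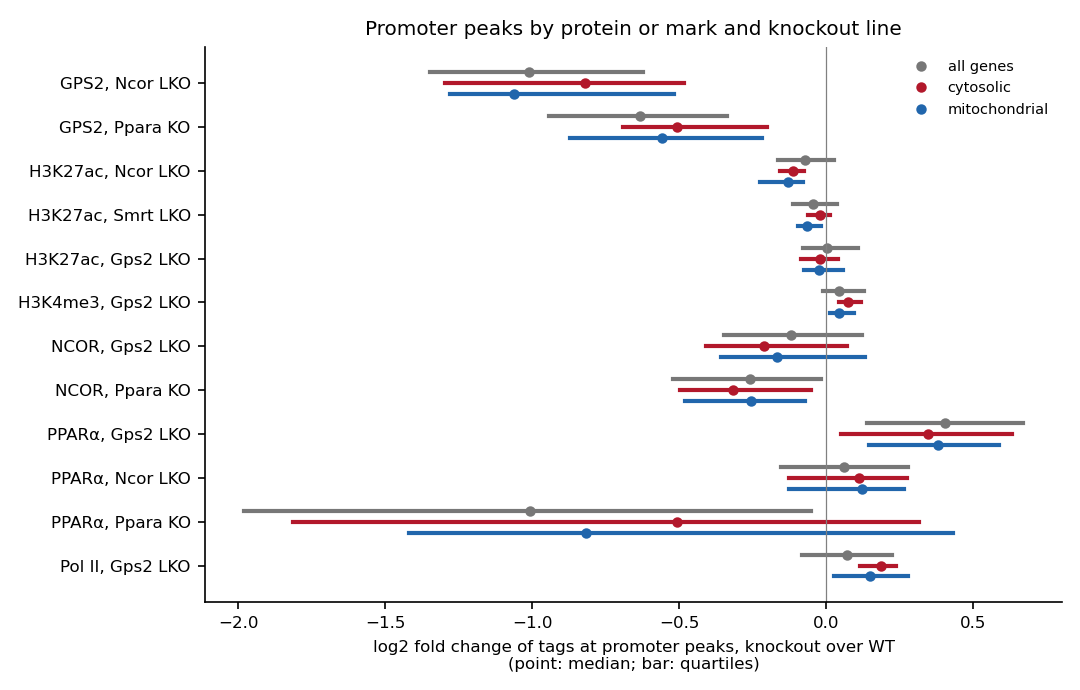
Median (point) and quartiles (bar) of the log2 fold change, knockout over WT, at promoter peaks for each protein or mark and line, for all genes (grey), cytosolic (red) and mitochondrial (blue) members. GPS2 in Gps2 LKO is left out as it falls outside the axis, and the medians of the member classes lie within the quartiles of all genes in every row. For PPARα in Pparα KO, which rests on very few tags, the cytosolic and mitochondrial medians are -0.51 and -0.82 against -1.01 over all genes.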

How the data were processed

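The authors aligned polyadenylated RNA-seq reads and deposited raw read counts per gene. The methods name HISAT2 to mm9 and HOMER, the labels name featureCounts, and 99.7% of the deposited gene positions overlap RefSeq's in GRCm38.p6, so the aligner and counter behind the counts remain uncertain. ChIP-seq reads were aligned to mm9 with Bowtie, and the authors deposited raw tag counts per HOMER peak with total tags per library (7.9 to 46.11 M). Length and peak positions are other values of the deposited tables. The authors' own fold changes, p-values and peak scores were not used, nor was input DNA.

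Counts were tested with edgeR 4.0.16 in R 4.3.3 (quasi-likelihood, TMM for RNA-seq and total tags for ChIP-seq, adjusted p below 0.05), beside DESeq2 1.42.0. RNA-seq genes passed filterByExpr, and ChIP-seq peaks needed 1 tag and, for histone marks, a call in 2 libraries. Fold changes are log2 of LKO or KO over WT. The length curve was a lowess with a span of 0.3. Single ChIP-seq libraries have exact Poisson intervals of 95%, which cover counting error only. In their log2 ratios a count of 0 was set to 3 tags, while other counts were left as they were. The scripts were tested on simulated counts. Sequences are RefSeq's. Named members are *Gps2*, the 5 of highest RPKM, the 5 largest and 5 smallest called changes of each class, paralogs, other subunit genes, the extremes of each list, up to 3 ChIP rises and falls of at least 50 tags, and the members with most GPS2 or Pol II tags; others are said to be chosen later, and some members that this rule names are not reported here. The members and lists were chosen with earlier results of these data known. No label says that libraries come from separate litters, so p-values measure the spread between these samples.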

Additional observations from a re-analysis of the deposited data

Results flagged for a closer look

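In 12 of 108 groups of 4 libraries examined, 1 library lay apart from the other 3 by Dixon's criterion, where chance gives about 1 in 20. In 8 of these the library was LKO library 2. It lay below the others for *Rplp1* (191 CPM against 279 to 282), *Rpl8* (206 against 275 to 288), *Rpl22* (68.0 against 90.1 to 92.6), *Mrpl12* (84.1 against 112 to 117), *Mrpl17* (48.5 against 62.1 to 63.8), *Gadd45gip1* (37.8 against 51.5 to 53.3) and *Npm1* (22.3 against 32.9 to 34.9), and above them for *Deptor* (283 against 197 to 207). In each of these the library lay nearer to the WT libraries than the other LKO libraries did, and the cause was not tested.

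The other libraries apart were WT libraries. WT library 4 was the highest for *Rpl6* (19.5 CPM against 15.8 to 16.1) and for *Rps27l* (88.0 against 71.6 to 73.5), WT library 3 was the highest for *Polr1a* (40.2 against 35.6 to 36.1), and WT library 2 was the lowest for *Tpt1* (11.1 against 13.4 to 13.9).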

How the results depend on the processing

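Of the RNA-seq counts, the cytosolic rise kept its direction under every alternative run: DESeq2 called 53 higher and 0 lower (20.2% and 22.0% of all genes), DESeq2's size factors 54 and 0 (21.8% and 23.0%), total counts 46 and 0 (12.8% and 37.9%), and leaving out each library 47 to 59 higher. With the length trend removed, the cytosolic counts were 34 higher and 0 lower (median 0.26), 35 and 1 with the replicate block (0.26), 36 and 0 with the curve fitted without members (0.27) and 36 and 1 without LKO library 2 (0.25), which was added after the data were seen. The mitochondrial counts were then 6 higher and 9 lower (0.00), 7 and 8 (0.00), 6 and 8 (0.00) and 12 and 13 (0.01), 5 and 3 with total counts (0.04), 2 higher when a call also needed a size of 0.5, and 16 to 55 higher and 0 to 1 lower without each library in turn. Signs turned for *Mrpl30* (-0.17, -0.17, -0.15 and -0.18), *Mrpl14* (-0.10, -0.10, -0.08 and -0.08) and *Rps27l* (-0.11, -0.12, -0.10 and -0.14) in the trend-removed fits alone, with the block, with the curve without members and without LKO library 2, for *Mrpl48* in the last (-0.10), and for *Rpl7l1* (-0.01) and *Dap3* (0.00, just below 0) with total counts. The cause was not tested. For some of these settings the share of all genes is given neither here nor above. Their counts describe only how far calls depend on the processing.

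Replicate numbers did not pair the RNA-seq libraries (same-number correlations of 0.0489, 0.104, 0.0201 and 0.12), and the replicate block gave 58 cytosolic and 34 mitochondrial members higher, beside 24.2% of all genes. The ChIP-seq counts that follow describe only how far calls depend on the processing. The share of all promoter peaks is not given beside them here, so they are not results about the members. In ChIP-seq, GPS2 in *Ncor* LKO with the replicate block gave 4 cytosolic and 3 mitochondrial peaks lower, DESeq2 3 and 2, TMM 1 and 1 higher, a filter on low counts 1 cytosolic lower, and leaving out each library 0 to 30 lower in each class, 30 without WT library 3. GPS2 in *Gps2* LKO with the median ratio of all peaks set to 1 gave 15 cytosolic peaks higher and 7 lower, and 19 and 5 mitochondrial. The LKO library held 0 tags at 32 cytosolic and 43 mitochondrial peaks, and a 0 set to 3 tags exceeds a count of 1 or 2. These counts thus follow from that setting and the scaling, and describe no change at the members. H3K27ac in *Ncor* LKO gave 0 to 1 mitochondrial peaks lower without each library. PPARα in *Gps2* LKO gave 1 cytosolic peak higher and 0 lower and 2 mitochondrial higher with DESeq2, 0 higher and 2 lower in each class with TMM, 0 cytosolic lower with the filter, and 2 and 0 cytosolic and 3 mitochondrial with the WT libraries counted as 1. Without each library it gave 2 to 6 cytosolic higher and 0 to 1 lower, and 3 to 10 mitochondrial higher and 0 to 1 lower. PPARα in *Pparα* KO gave 1 cytosolic lower with DESeq2, 0 and 0 with TMM, 1 cytosolic with the filter, which left 0 mitochondrial peaks to test, 0 and 0 with the replicate block, and 0 to 4 cytosolic and 0 to 1 mitochondrial without each library.

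Tags in WT at the members were fewest for PPARα in the *Pparα* line, with medians of 1.5 and 1.84 tags per 10 M.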
